A study of Mus musculus with 12 samples.

Results

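The Hoxb cluster is a run of homeobox genes on mouse chromosome 11, and it was described here in hematopoietic stem cells of 4 genotypes. The genes were chosen by symbol: 7 were asked for, Hoxb2 to Hoxb8, and 6 of them are among the 18546 genes in the deposited table. Hoxb7 has no row in the table used here and was not analysed here. Of the 6, 5 reached 1 RPKM (reads per kilobase of gene length, scaled to the library's size) in at least 3 libraries and entered the tests, and Hoxb8 did not.

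The cells were SLAM stem cells, taken from marrow of C57BL/6 mice at 10 to 12 weeks of age and sorted as positive for CD150, Sca1 and cKit and negative for CD48 and lineage markers. The 4 genotypes were the double mutant NrasG12D/+;Tet2+/-, NrasG12D/+ alone, Tet2+/- alone and wild type, with 3 libraries each. NrasG12D is an activated form of the Nras GTPase, and Tet2 encodes an enzyme that oxidises methylated cytosine in DNA. The labels used here name neither a driver or Cre line for the NrasG12D allele nor the number of mice behind a library, so a p-value measures the spread between these libraries, which may be partly technical.

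Hox proteins are transcription factors that bind DNA together with PBX and MEIS homeodomain partners. In the embryo the genes of a cluster are switched on in order from the 3′ end to the 5′ end and give cells their position along the body axis. In blood formation, Hox genes are on in stem and progenitor cells and are turned down as cells mature, and forced expression of Hoxb4 is known to expand mouse stem cells.

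The libraries held 19205045 to 36890942 reads in genes, as recovered from the deposited values. Between 1000 and 3824 genes per library had 0 reads, the most in wild-type replicate 1, which is also the shallowest library. A library with fewer than 3 reads of a gene is treated below as not showing it, and intervals on reads cover counting error only. All 13 stem cell and gate markers, of which Hoxb5 is 1, averaged at least 1 RPKM in each genotype, and their summed level was 206 to 239 RPKM in double mutants, 196 to 244 in NrasG12D/+, 250 to 257 in Tet2+/- and 215 to 256 in wild type. The summed level of 7 megakaryocyte markers was 36.7 to 52.3 RPKM in double mutants, 45.9 to 66.6 in NrasG12D/+, 25.6 to 40.0 in Tet2+/- and 21.8 to 32.9 in wild type, and its part in the Hoxb values was not tested. Tet2 itself averaged 4.98 ± 0.615 RPKM in double mutants, 5.71 ± 1.16 in NrasG12D/+, 4.72 ± 0.579 in Tet2+/- and 4.95 ± 0.0301 in wild type (SD, n = 3 each), and since the labels do not say which part of the gene the allele lacks, this level does not check the genotype. In sorted bulk cells, fewer cells that carry a transcript and less of it per cell cannot be told apart.

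All 7 genes lie on the plus strand of chromosome 11 in GRCm38 (mm10), with Hoxb8 first and Hoxb2 last by coordinate, the order being Hoxb8, Hoxb7, Hoxb6, Hoxb5, Hoxb4, Hoxb3 and Hoxb2. RefSeq's table of promoters (GRCm38.p6) held 2 of the members, Hoxb4 and Hoxb8, which were also the members with the highest and the lowest level. Both windows are shown for that reason, each as the 250 bases before the start that the table uses, read 5′ to 3′ on the plus strand, chr11:96318017-96318266 for Hoxb4 and chr11:96281655-96281904 for Hoxb8. Both starts are those of the genes in GENCODE M21, whereas the RefSeq gene span of Hoxb8 begins upstream, at position 96279401, so that the Hoxb8 window lies inside it. Capitals mark matches to 5 motifs searched on both strands: CCAAT (the NF-Y box), CACGTG (the E-box of USF proteins), TATAAA (the TATA box), TTTATNG (a site of CDX proteins) and TGATNNAT (a joint site of HOX and PBX).
Hoxb4: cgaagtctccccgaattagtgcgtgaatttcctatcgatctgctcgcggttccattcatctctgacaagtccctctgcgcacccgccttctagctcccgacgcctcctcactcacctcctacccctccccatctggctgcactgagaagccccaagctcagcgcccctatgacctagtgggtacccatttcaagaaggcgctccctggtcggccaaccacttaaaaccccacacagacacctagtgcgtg
Hoxb8: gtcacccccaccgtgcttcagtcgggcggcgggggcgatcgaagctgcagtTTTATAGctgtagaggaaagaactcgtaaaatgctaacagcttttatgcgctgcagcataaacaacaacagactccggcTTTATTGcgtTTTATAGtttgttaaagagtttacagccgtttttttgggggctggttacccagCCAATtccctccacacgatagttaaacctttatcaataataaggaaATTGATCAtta
The Hoxb4 window held none of these letters. The Hoxb8 window held the CDX letters 3 times, beginning 199, 120 and 110 bases before the start, and 2 of these matches overlap the TATA letters read on the minus strand. It also held 1 CCAAT box beginning 57 bases before the start, and 1 HOX-PBX match from 11 to 4 bases before it. Over the 32851 promoters of the table, cut to the same length, 33.8% held CCAAT, 6.02% CACGTG, 12.4% TATAAA, 9.81% TTTATNG and 7.68% TGATNNAT. The windows also differed in composition, with 58% G and C and 14 CG pairs for Hoxb4 against 44.4% and 12 pairs for Hoxb8, where the medians over all promoters were 52.4% and 6 pairs. A match of letters is a description of the window and not evidence of binding.

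Within the cluster, Hoxb4 was the most abundant member by far. Over the 12 libraries it averaged 13.7 ± 2.45 RPKM (SD, n = 12), a level above that of 84.0% of all genes in the table. Hoxb3 followed at 4.91 ± 1.22 RPKM and Hoxb6 at 2.63 ± 1.08 RPKM. Hoxb2 averaged 1.45 ± 1.15 RPKM and Hoxb5 1.41 ± 0.671 RPKM, and Hoxb8, at 0.334 ± 0.441 RPKM, stood above only 9.97% of genes. The order of levels was tested within libraries, between genes next to each other in mean RPKM and not on the chromosome. An exact two-sided permutation test flipped the sign of each library's difference, with Benjamini-Hochberg adjustment over 5 pairs. The pairs were taken from the means of these same 12 libraries, so the test describes separation within a pair and is no independent test of the order. Hoxb4 exceeded Hoxb3 in 12 of 12 libraries by a mean of 8.83 RPKM (exact permutation p = 0.000488, the smallest this test can give, adjusted p = 0.00244). Hoxb3 exceeded Hoxb6 in 11 of 12 libraries (adjusted exact permutation p = 0.00244), Hoxb6 exceeded Hoxb2 in 11 of 12 (0.0360), and Hoxb5 exceeded Hoxb8 in 11 of 12 (0.00244). Hoxb2 and Hoxb5 were not separated: Hoxb2 was the higher in 5 of 12 libraries, with a mean difference of 0.038 RPKM (exact permutation p = 0.905), and their order turned round when RPKM was recomputed from GENCODE M21 exon lengths.

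**Figure D1:**
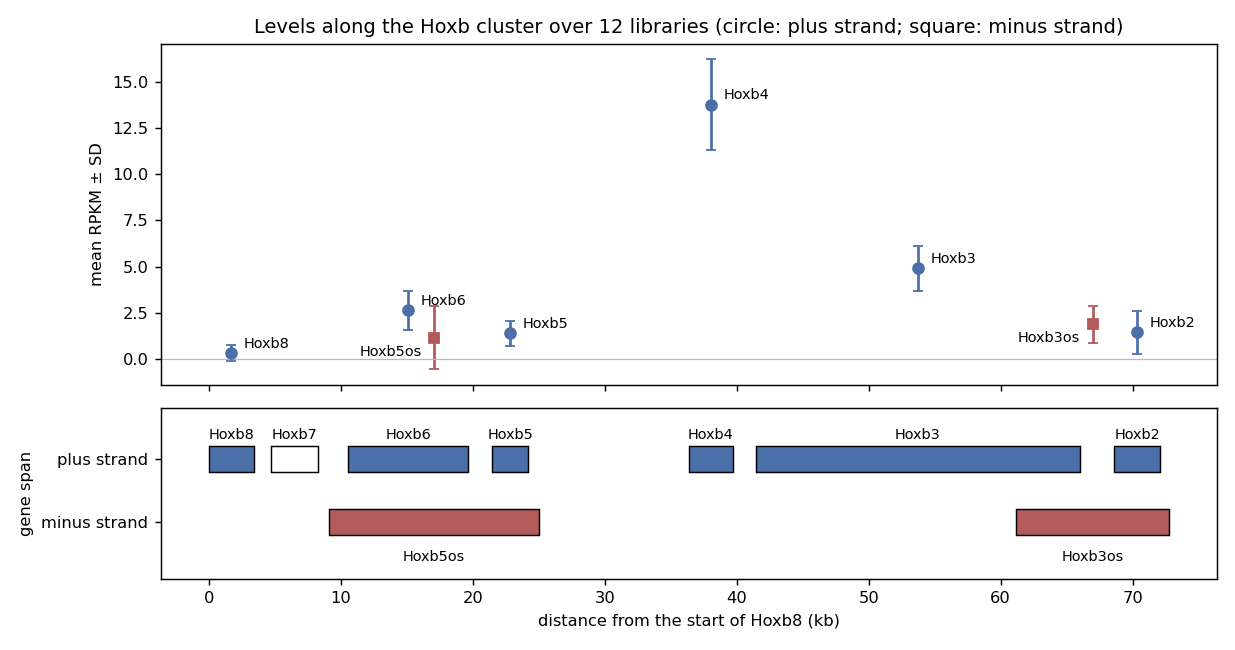
Mean RPKM with SD over the 12 libraries (upper panel, vertical axis) of each Hoxb gene and antisense gene at its distance in kb from the start of Hoxb8 (horizontal axis), above the gene spans on each strand; the open box is Hoxb7, which has no values. Hoxb4 stands at 13.7 RPKM in the middle of the cluster, and the genes on both sides of it are lower.

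The level behind an RPKM depends on the length and strand that the authors' counting used. The lengths implied by the deposited values were 0.998 times the GENCODE M21 exon length for Hoxb4, and 1.36, 1.45, 1.68, 1.67 and 1.68 times it for Hoxb2, Hoxb3, Hoxb5, Hoxb6 and Hoxb8, beside a median of 1.23 over 17264 genes matched by symbol. With the same recovered reads divided by the M21 lengths, Hoxb4 still exceeded Hoxb3 in 12 of 12 libraries, at 13.7 and 7.17 RPKM. Those reads were counted over the authors' gene models, so this mixes annotations and raises the members whose implied length is longer. Exons of the antisense gene Hoxb3os cover 52.9% of the exon bases of Hoxb3 and 27.3% of those of Hoxb2, and exons of Hoxb5os cover 3.59% of those of Hoxb5. The library kit marks strand, but the counting setting is not given in the sources used here, so how reads on shared bases were assigned is not known. The counts within a pair did differ. Double mutant replicate 2 held 720 reads of Hoxb3 and 0 of Hoxb3os, and wild-type replicate 1 held 151 of Hoxb3os and 0 of Hoxb2. Hoxb4, Hoxb6 and Hoxb8 share no exon base with an antisense gene, while the RefSeq span of Hoxb3 contains Hoxb4.

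Summed over the 6 genes, the cluster's level was 22.9 ± 1.69 RPKM in double mutants, 26.7 ± 6.64 in NrasG12D/+, 25.9 ± 4.99 in Tet2+/- and 22.4 ± 1.87 in wild type (SD, n = 3 each), with no test run on the sum. The highest sums were NrasG12D/+ replicate 2 at 33.8 RPKM and Tet2+/- replicate 2 at 31.3 RPKM, and the lowest NrasG12D/+ replicate 3 at 20.6 RPKM. Hoxb4 alone made up 48.2% to 66.0% of a library's sum on the deposited values. This share depends on the lengths used and would be smaller if the same reads were divided by the M21 lengths, which mixes annotations as said above. With those, Hoxb4 averaged 13.7 RPKM, Hoxb3 7.17, Hoxb6 4.39, Hoxb5 2.37, Hoxb2 1.98 and Hoxb8 0.553. The Hoxa cluster, the other Hox cluster with genes past 1 RPKM here, summed to 102 ± 14.7 RPKM over 8 genes in double mutants, 84.5 ± 15.5 in NrasG12D/+, 97.1 ± 4.30 in Tet2+/- and 90.9 ± 2.13 in wild type.

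**Figure D2:**
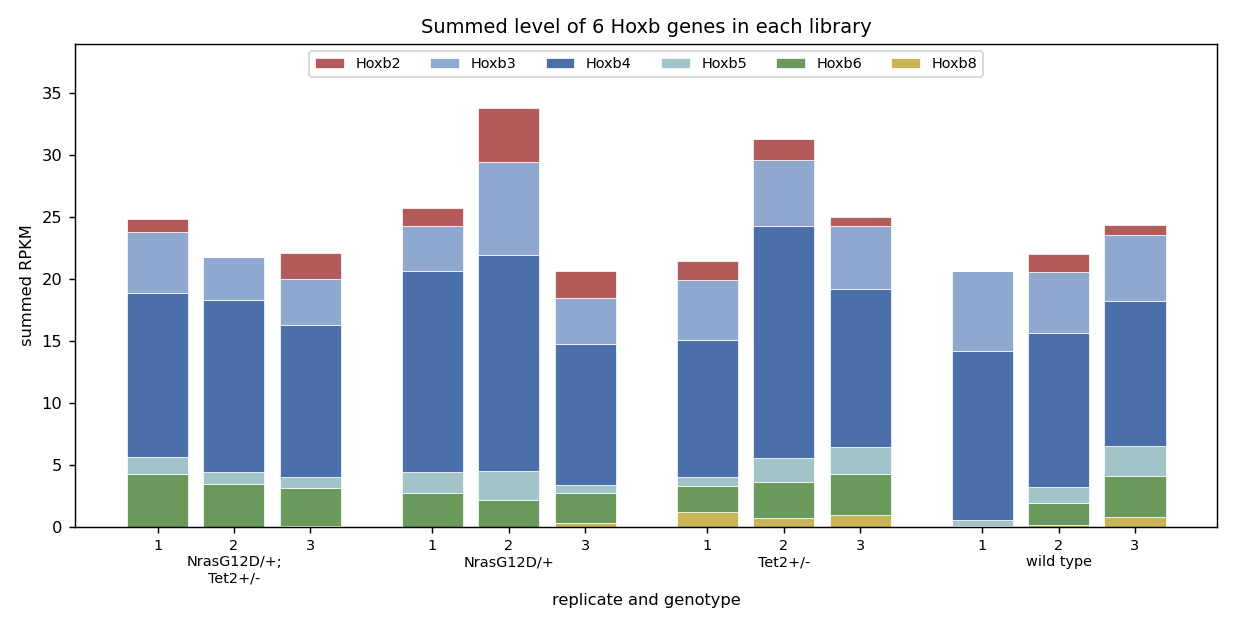
Summed RPKM of 6 Hoxb genes (vertical axis) in each of the 12 libraries (horizontal axis, replicates 1 to 3 of each genotype), with each gene's part in its own colour. On the deposited values Hoxb4 fills 48.2% to 66.0% of every bar, a share that depends on the gene lengths used. The tallest bar is NrasG12D/+ replicate 2 at 33.8 RPKM.

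No Hoxb gene passed the test in any comparison of genotypes. The comparisons were each genotype with wild type, the double mutant with each single mutant, the average effect of each allele and the interaction of the alleles. These 8 gave 40 tests of the 5 members. The test was limma on log2 RPKM in 1 fit of all 12 libraries, two-sided, with Benjamini-Hochberg adjustment over 15478 genes and a threshold of 0.05. Across these tests the smallest adjusted p was 0.775 and the smallest unadjusted p was 0.0777, so 0 of 40 fell under 0.05 without adjustment. With limma's voom on the recovered reads 1 of 40 did, the interaction of the alleles for Hoxb2, and 0 passed the adjusted threshold. Over all genes, 0.00646% passed the adjusted threshold in each comparison with wild type, 0% in double mutants against NrasG12D/+ and 0.00646% against Tet2+/-. The average effects of the Nras and Tet2 alleles gave 0.0323% and 0%, and the interaction 0.0129%. At an unadjusted p under 0.05 the shares of all genes were 6.42%, 5.61% and 3.35% for double mutants, NrasG12D/+ and Tet2+/- against wild type, and 4.04% and 5.45% for double mutants against NrasG12D/+ and Tet2+/-. They were 7.24% and 3.81% for the average Nras and Tet2 effects and 3.38% for the interaction. The 3 comparisons with wild type use the same 3 wild-type libraries, and a common shift of their values moves all of them.

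**Figure D3:**
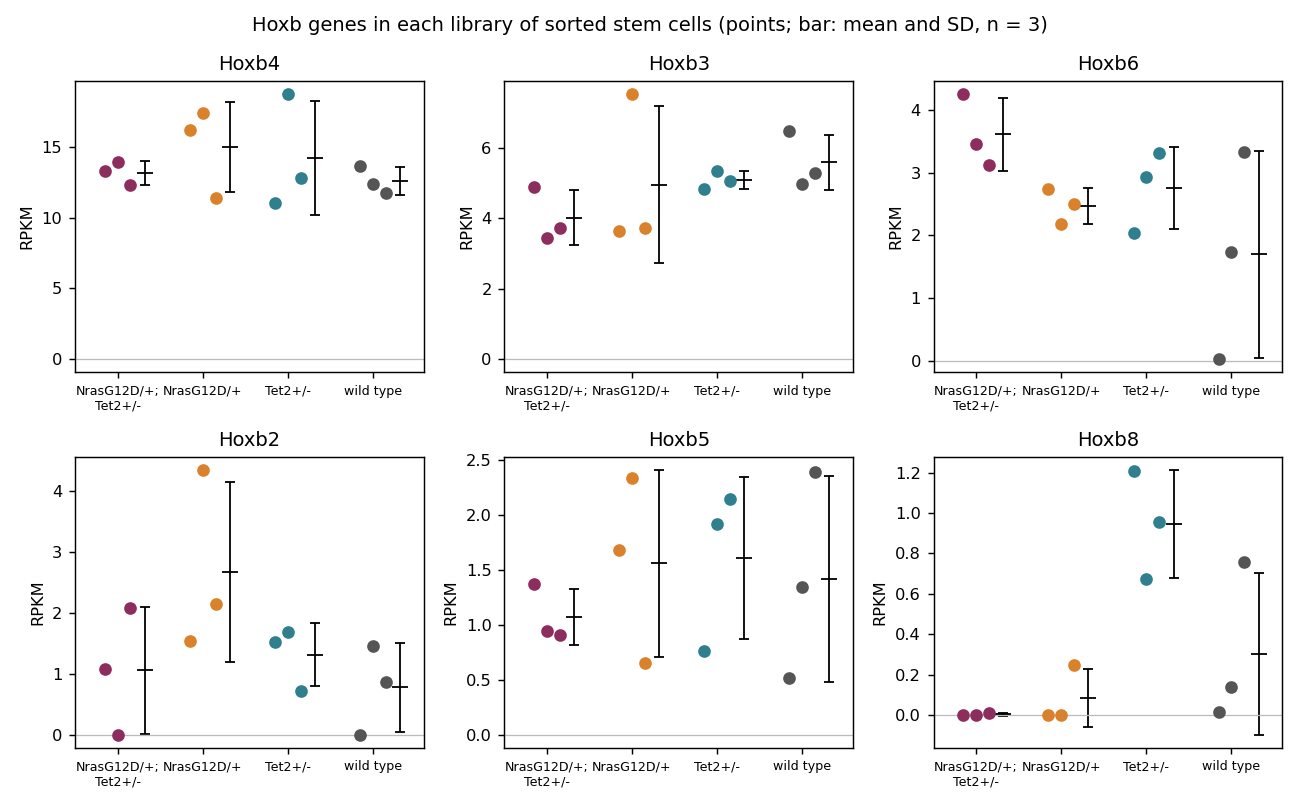
RPKM (vertical axis, a separate scale per gene) of 6 Hoxb genes in each library (points) by genotype (horizontal axis), with mean and SD of 3 libraries beside them. All genotypes overlap for Hoxb4 and Hoxb5. Without overlap, NrasG12D/+ lies above wild type for Hoxb2, double mutants below wild type for Hoxb3, and double mutants above NrasG12D/+ for Hoxb6. Wild-type replicate 1 is near 0 for Hoxb6, and both it and double mutant replicate 2 are at 0 for Hoxb2. The Hoxb8 values of Tet2+/- lie above those of both NrasG12D/+ genotypes.

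Hoxb4, whose protein promotes self-renewal of stem cells when overexpressed in mice, varied least relative to its level. It had 13.3, 13.9 and 12.3 RPKM in double mutants, 16.2, 17.4 and 11.4 RPKM in NrasG12D/+, 11.1, 18.7 and 12.8 RPKM in Tet2+/-, and 13.7, 12.4 and 11.8 RPKM in wild type. All 4 genotypes overlapped, and the spread was wide in both single mutants and narrow in double mutants and wild type. These values rest on 701 to 1308 reads per library. Relative to wild type, the log2 difference was 0.06 in double mutants (95% interval -0.41 to 0.53, limma adjusted p = 0.978), 0.23 in NrasG12D/+ (-0.24 to 0.70, 0.900) and 0.14 in Tet2+/- (-0.33 to 0.61, 1). The intervals bound any difference of Hoxb4 more tightly than those of the other members.

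Hoxb3, a neighbour of Hoxb4 that acts with it in mouse stem cell proliferation, was lower in double mutants than in wild type in every library, without passing the test. Its values were 4.90, 3.44 and 3.72 RPKM in double mutants, 3.63, 7.53 and 3.72 RPKM in NrasG12D/+, 4.84, 5.34 and 5.07 RPKM in Tet2+/-, and 6.48, 4.99 and 5.30 RPKM in wild type. The highest double mutant, at 4.90 RPKM, lay just under the lowest wild type, at 4.99 RPKM, and Hoxb3 was the 1 member of 5 whose groups did not overlap in that comparison, where 5.16% of all genes were lower with no overlap. The log2 difference was -0.48 (95% interval -1.13 to 0.16, limma adjusted p = 0.808). In NrasG12D/+ the log2 difference from wild type was -0.25 (-0.90 to 0.40), with replicate 2 at 7.53 RPKM above every other library, and in Tet2+/- it was -0.13 (-0.77 to 0.52). Averaged over both backgrounds, the Nras allele gave -0.30 (-0.76 to 0.15, limma adjusted p = 0.823). The log2 ratio of Hoxb3 to Hoxb4 within a library averaged -1.73 in double mutants, -1.66 in NrasG12D/+, -1.45 in Tet2+/- and -1.18 in wild type, and was given no test since it was computed after the levels were seen.

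Hoxb6, which expands stem cells and myeloid precursors when overexpressed in mice, had its 2 lowest values in wild-type libraries, and the size of its difference from wild type rests on 1 of them. It had 4.25, 3.45 and 3.13 RPKM in double mutants, 2.74, 2.18 and 2.49 RPKM in NrasG12D/+, 2.04, 2.93 and 3.31 RPKM in Tet2+/-, and 0.0331, 1.74 and 3.32 RPKM in wild type. Wild-type replicate 1 held 2 reads of Hoxb6, under the floor of 3, while the other libraries held 142 to 384. Set against wild type, the log2 difference was 2.64 in double mutants (95% interval -0.35 to 5.63, limma adjusted p = 0.775), 2.10 in NrasG12D/+ (-0.89 to 5.08) and 2.23 in Tet2+/- (-0.76 to 5.22). Without wild-type replicate 1 these became 0.58, 0.03 and 0.17. Double mutants lay above NrasG12D/+ with no overlap, at 3.61 ± 0.577 and 2.47 ± 0.284 RPKM, as 1 member of 5 in a comparison where 4.15% of all genes were higher with no overlap. That log2 difference was 0.54 (-2.45 to 3.53, limma adjusted p = 1), and its interval is wide because the fit takes the spread from all genotypes, wild-type replicate 1 included.

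Hoxb2, known for its part in hindbrain patterning, was the most variable of the tested members. It had 1.07, 0 and 2.08 RPKM in double mutants, 1.53, 4.34 and 2.14 RPKM in NrasG12D/+, 1.52, 1.68 and 0.715 RPKM in Tet2+/-, and 0, 1.46 and 0.859 RPKM in wild type. Double mutant replicate 2 and wild-type replicate 1 held 0 reads, which allows up to 0.0186 and 0.0329 RPKM, whereas the other 10 libraries held 90 to 605 reads. All NrasG12D/+ libraries lay above all wild-type ones, as 1 member of 5 in a comparison where 5.27% of all genes were higher with no overlap. On the deposited log2 scale that difference was 4.20 (95% interval -2.25 to 10.65, limma adjusted p = 0.870), a size set by the library at 0, and it was 1.11 without wild-type replicate 1. In double mutants it was 0.28 relative to wild type (-6.17 to 6.73) and turned to -2.81 without that library. In Tet2+/- it was 3.22 (-3.24 to 9.67), against 0.13 without it. Of the 5 tested members, 0 were free of overlap in Tet2+/- against wild type, where 9.25% of all tested genes were, and 0 in double mutants against Tet2+/-, where 12.7% were.

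Hoxb5, a marker of long-term stem cells in the mouse, overlapped across all genotypes. It had 1.37, 0.942 and 0.904 RPKM in double mutants, 1.68, 2.34 and 0.653 RPKM in NrasG12D/+, 0.763, 1.92 and 2.14 RPKM in Tet2+/-, and 0.514, 1.35 and 2.39 RPKM in wild type. Wild type alone held both the lowest and the highest of the 12 libraries. Its reads ran from 48 to 386. Set against wild type, it differed on the log2 scale by -0.17 in double mutants (95% interval -1.77 to 1.43, limma adjusted p = 0.986), 0.21 in NrasG12D/+ (-1.39 to 1.81) and 0.31 in Tet2+/- (-1.29 to 1.90), and the sign of each turned when 1 library was left out.

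**Figure D4:**
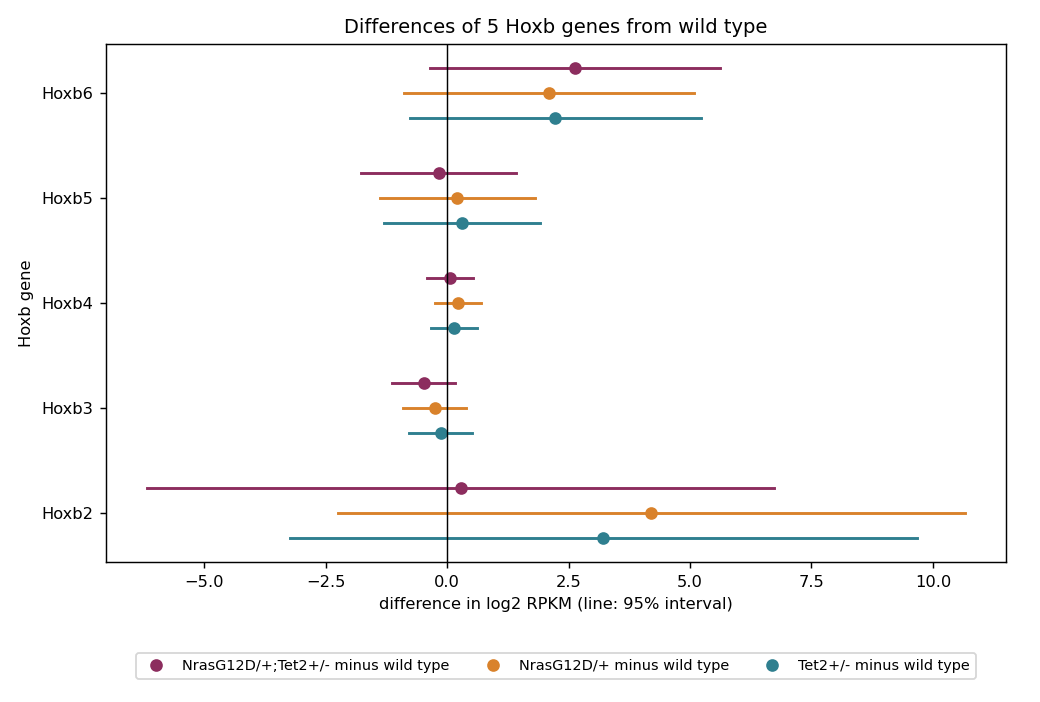
Difference in log2 RPKM from wild type (horizontal axis; point, estimate; line, 95% interval) of the 5 tested Hoxb genes (vertical axis) in double mutants, NrasG12D/+ and Tet2+/-. Every interval includes 0; those of Hoxb4 span under 1 unit, and those of Hoxb2 and Hoxb6 are wide.

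Hoxb8, which keeps myeloid progenitors from maturing when overexpressed, reached 1 RPKM in 1 of 12 libraries on the deposited values and so stayed outside the main test. That count depends on the length used, and the length implied for Hoxb8 was 1.68 times its GENCODE M21 exon length. The reads of Hoxb8 were 0, 0 and 1 in double mutants, 0, 0 and 40 in NrasG12D/+, 182, 77 and 112 in Tet2+/-, and 1, 15 and 116 in wild type. In RPKM these were at most 0.00969 in double mutants and at most 0.249 in NrasG12D/+, against 0.672 to 1.21 in Tet2+/- and 0.0132 to 0.758 in wild type. All double mutants lay below all Tet2+/- libraries, as did 6.53% of the tested genes. All 6 libraries with the NrasG12D allele lay below all Tet2+/- libraries, as did 2.03% of the tested genes. Hoxb8 is not among the tested genes, and the share over genes of like depth was not computed. Wild type overlapped both Tet2+/- and NrasG12D/+. Pooled by genotype, double mutants had 1 read against 371 in Tet2+/-, a ratio of 0.00282 per read in genes (95% counting interval 7.11e-05 to 0.0158), and against 132 in wild type, a ratio of 0.00714 (0.000179 to 0.0405). For NrasG12D/+ against wild type the ratio was 0.251 (0.172 to 0.360), with all 40 reads in replicate 3.

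Since the libraries of a genotype differed far beyond counting error, these intervals do not stand for the genotypes. With no minimum on RPKM, limma gave Hoxb8 a log2 difference of -8.11 in double mutants against Tet2+/- (unadjusted p = 0.00420, adjusted p = 0.610) and of -5.80 for the average effect of the Nras allele (unadjusted p = 0.00390, adjusted p = 0.399). With voom on the recovered reads and no minimum, the adjusted p was 0.342 for double mutants against Tet2+/- and 0.207 for the Nras allele. Sizes this large are set by the libraries at 0 and by the prior count in the deposited values. Hoxb8 was described in this way after its values were seen.

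The antisense RNA gene Hoxb5os, which spans Hoxb6 and Hoxb5 on the minus strand, also had almost no reads in double mutants. It held 0, 1 and 0 reads in double mutants, 0, 0 and 105 in NrasG12D/+, 0, 12 and 95 in Tet2+/-, and 44, 8 and 35 in wild type. The log2 difference of double mutants from wild type was -5.99 (limma unadjusted p = 0.0512, adjusted p = 0.767). Hoxb3os, antisense to Hoxb3 and Hoxb2, held 160, 0 and 135 reads in double mutants and 151, 227 and 615 in wild type, a log2 difference of -3.99 (limma adjusted p = 0.775). Its library at 0, double mutant replicate 2, is one of the 2 libraries in which Hoxb2 was at 0. Without that library the Hoxb3os difference was -0.85.

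The neighbours of the cluster and the genes known to act with it or upstream of it gave no call either. Of 18 genes in and around the cluster (Hoxb3os, Hoxb5os and flanking genes among them), 7 were tested and 0 passed in any comparison. In double mutants against wild type 7 of 7 had negative log2 differences, with a median of -0.18 beside 0.02 over all genes. Both single mutants shared this tilt against the same wild-type libraries, with 6 of 7 negative in each. Their medians were -0.47 in NrasG12D/+ and -0.37 in Tet2+/-, beside 0.01 and 0.04 over all genes. The share of negative differences over all genes was not computed. Ube2z, a ubiquitin-conjugating enzyme gene near the cluster, had 14.1 ± 2.58 RPKM in Tet2+/- and 19.7 ± 3.77 in wild type (SD, n = 3 each; limma adjusted p = 1). Of the 9 TALE homeodomain cofactors (the PBX, MEIS and PKNOX proteins that bind DNA with Hox proteins), 6 were tested and 0 passed. In double mutants 5 of these 6 had positive differences from wild type, with a median of 0.14 beside 0.02 over all genes. In each single mutant 3 were positive and 3 negative, with medians of 0.04 in NrasG12D/+ and -0.04 in Tet2+/-. Pknox1 had 4.89 ± 0.512 RPKM in double mutants against 3.72 ± 0.361 in wild type (limma adjusted p = 0.800). In Tet2+/-, Pbx2 had 8.31 ± 1.85 RPKM against 10.4 ± 1.44 in wild type, and Pbx4 6.62 ± 1.49 against 4.51 ± 1.38, both with a limma adjusted p of 1.

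Of 39 regulators known to act on Hox genes, such as the MLL and MOZ complexes, Polycomb proteins, CDX and USF factors and retinoic acid receptors, 36 were tested and 0 passed. In double mutants 19 of them had positive and 17 negative differences from wild type, with a median of 0.03 beside 0.02 over all genes. Kat6a, the MOZ acetyltransferase that sustains Hox expression, had 25.7 ± 0.563 RPKM in double mutants and 21.1 ± 1.06 in wild type, a log2 difference of 0.28 with an SE of 0.08 (limma unadjusted p = 0.00700, adjusted p = 0.754). Rbbp5, a core subunit of the MLL methyltransferase complexes, had 5.18 ± 1.02 RPKM in double mutants and 7.99 ± 0.983 in wild type, a difference of -0.64 with an SE of 0.20 (limma adjusted p = 0.754). Usf1 had 3.63 ± 1.08 RPKM in NrasG12D/+ and 1.94 ± 0.716 in wild type (limma adjusted p = 0.870).

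Retinoic acid switches on the 3′ members of Hox clusters in embryonic cells. Of 10 listed target and handling genes of retinoic acid, 5 were tested and 0 passed, with 3 positive and 2 negative differences in each comparison with wild type. The median log2 difference of the 5 was 0.81 in double mutants, 0.55 in NrasG12D/+ and 0.05 in Tet2+/-. Over all genes it was 0.02, 0.01 and 0.04 in the same order. Dhrs3, which reduces retinal to retinol, had 2.79 ± 0.115 RPKM in double mutants and 1.38 ± 0.595 in wild type (limma adjusted p = 0.759). Tgm2, a transglutaminase, had 27.3 ± 7.98 RPKM in Tet2+/- and 37.6 ± 6.97 in wild type (limma adjusted p = 1).

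In the other Hox clusters 29 genes were listed, 13 are in the table, and the 8 that were tested are all Hoxa genes, of which 0 passed. Hoxa4, the Hoxa counterpart of Hoxb4, had 2.48 ± 0.965 RPKM in NrasG12D/+ and 8.52 ± 3.56 in wild type, a log2 difference of -1.75 with an SE of 0.38 (limma unadjusted p = 0.000943, adjusted p = 0.634). Hoxa7 had 11.3 ± 0.841 RPKM in NrasG12D/+ and 15.8 ± 4.72 in wild type (limma adjusted p = 0.870), and Hoxa6 had 45.4 ± 11.1 RPKM in double mutants and 25.8 ± 10.1 in wild type (limma adjusted p = 0.754). The other mutants lay on the same side of these wild-type means. Hoxa4 averaged 4.41 RPKM in double mutants and 4.95 in Tet2+/-, and Hoxa7 12.8 and 13.9. Hoxa6 averaged 34.7 RPKM in NrasG12D/+ and 35.7 in Tet2+/-.

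The members' own spread between libraries of the same genotype was compared with that of counting alone, as the chi-square of their reads within genotypes divided by its degrees of freedom. Differences between genotypes do not enter it. This was 94.7 for Hoxb2, 63.7 for Hoxb3, 51.0 for Hoxb5, 40.7 for Hoxb4, 34.6 for Hoxb6 and 23.9 for Hoxb8, where 1 would be counting error. Genes of like depth had medians of 61.1 beside Hoxb2, 68.9 beside Hoxb3, 60.5 beside Hoxb5, 69.5 beside Hoxb4, 62.9 beside Hoxb6 and 45.3 beside Hoxb8. Hoxb2 thus stood above the median of its peers and the other 5 below it.

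Genes whose pattern over the libraries was most like that of the cluster were sought by Pearson's r. It was taken with the mean centred log2 RPKM of the 5 tested members over the 12 libraries. The search covered 11483 of the 15478 tested genes. The Hox cluster genes and many others were left out, so a gene more alike may lie among those not searched. Of the genes searched, the highest were Acot6 (r = 0.949), RP23-477N9.4 (0.948), Mycbp (0.946), Ercc2 (0.945) and Uchl3 (0.944). This level is lowest in wild-type replicate 1, at -2.96, and double mutant replicate 2, at -1.62, the 2 libraries with Hoxb2 at 0. Over the other 10 libraries r was 0.29, -0.03, 0.53, 0.26 and 0.63 in the same order, and Spearman's rho over all 12 was 0.56, 0.57, 0.78, 0.61 and 0.82. The likeness was weaker without the 2 libraries for all 5 genes, and least so for Mycbp and Uchl3. On log2(RPKM + 0.5) the 5 highest were other genes, Ppox (r = 0.932), Exoc1, Trip12, Kat2b-ps and Sdhaf1, and Acot6 had 0.738 and RP23-477N9.4 0.720. For single members the most alike genes were Kbtbd3 for Hoxb2 (r = 0.975), Lst1 for Hoxb3 (0.905), Rprl2 for Hoxb4 (0.834), Spns2 for Hoxb5 (0.851) and Spns3 for Hoxb6 (0.988). Each is the highest of 11483 values, and without the 2 libraries farthest from the member's median r was 0.65, 0.83, 0.70, 0.77 and 0.51 in that order. On log2(RPKM + 0.5) Lst1 and Rprl2 were again the highest for Hoxb3 and Hoxb4, and Cnot11, Nr1d1 and Braf were the highest for Hoxb2, Hoxb5 and Hoxb6.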

How the data were processed

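The deposited table holds log2 RPKM, a unit outside the usual list and so treated as an other unit, for 12 libraries of RNA depleted of ribosomal and mitochondrial RNA. The submitters' processing notes name CASAVA 1.8.2, TopHat2, edgeR and mm10, with no role stated. The values fitted whole reads with a prior of 0.25 reads for 100% of genes, to a tolerance of 0.001 reads, and these reads gave depths and floors. Genes with at least 1 RPKM in 3 or more libraries, 15478 in all, were tested with limma 3.58.1 (R 4.3.3; trended empirical Bayes, 1 mean per genotype, 8 residual degrees of freedom). Genes with fewer were left out, and Hoxb8 among them. The fit was tested on simulated data. Changes were put only into genes of small spread with at least 1 RPKM in all 12 libraries. Hoxb2, Hoxb5, Hoxb6 and Hoxb8 fell short of that level, so the simulation does not speak for them. Alternatives were other scalings, voom, weights, sex, a replicate block and each library left out. The Hoxb genes and the lists were chosen with earlier results of these data known. Genes named from a list are those with the smallest p in the comparisons with wild type, up to 3 a list, except 1 that is not reported here. Sequences came from RefSeq, gene positions from GENCODE M21.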

Additional observations from a re-analysis of the deposited data

Results flagged for a closer look

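On the log2 scale, 2 genes had every Tet2+/- library on one side of the wild-type mean and every double mutant on the other side of the NrasG12D/+ mean, and libraries at or near 0 reads set this pattern in both. Hoxb2 had a log2 difference of 3.22 in Tet2+/- from wild type and of -3.92 in double mutants from NrasG12D/+, an interaction of -7.14 that did not pass (limma unadjusted p = 0.112, adjusted p = 0.996). In RPKM, Tet2+/- replicate 3 had 0.715, below the wild-type mean of 0.773, and without wild-type replicate 1, at 0 reads, the difference of Tet2+/- from wild type was 0.13. Hoxb8 had a log2 difference of 3.05 in Tet2+/- from wild type and of -1.56 in double mutants from NrasG12D/+, an interaction of -4.61, fitted with no minimum on RPKM, that did not pass (limma unadjusted p = 0.172, adjusted p = 0.9999). With 0, 0 and 1 reads in double mutants against 0, 0 and 40 in NrasG12D/+, no direction can be read for Hoxb8 between these genotypes.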

How the results depend on the processing

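No Hoxb gene passed the adjusted threshold under any alternative, in 1472 tests over 34 settings, where the smallest adjusted p was 0.192 (Hoxb8, average Nras effect, no minimum on RPKM, without NrasG12D/+ replicate 3). Of 399 alternative values of 21 member differences, 382 kept their direction and 17 did not. The Hoxb2 difference of double mutants from wild type became -0.98 with library weights and -0.57 with voom, and ran from -2.81 to 3.50 with 1 library left out (-1.10, -1.57 and -2.81 being the reversals). Hoxb5 in NrasG12D/+ became -0.71 with quantile normalization, -0.55 with weights and -0.19 with voom (leave-one-out -0.39 to 0.75, with -0.17 without NrasG12D/+ replicate 2), and in Tet2+/- -0.057 with quantile normalization and -0.11 with voom (-0.29 to 0.81). Leave-one-out ranges that also crossed 0 were -0.77 to 0.34 for Hoxb5 in double mutants, -0.078 to 0.30 for Hoxb4 in Tet2+/- and -0.0040 to 0.19 for Hoxb4 and the Nras allele, the last also -0.030 with weights. The order of Hoxb2 and Hoxb5 turned to -0.136 on log2(RPKM + 0.5) and -0.392 RPKM with M21 lengths, both chosen after the data were seen.

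Counts of all genes called moved more. With log2(RPKM + 0.5), 3 genes passed in NrasG12D/+ against wild type and 0 in Tet2+/-, in double mutants and for the interaction. Quantile normalization gave 0 in each comparison with wild type and for the interaction, and 1 for the average Nras effect, which had 8 with median-centred libraries, 11 with weights and 20 with voom. Voom gave 0 in each comparison with wild type, in double mutants against Tet2+/- and for the interaction. Sex as a covariate gave 0 in double mutants against Tet2+/-. With 1 library left out, the counts ran from 1 to 18 in NrasG12D/+, 1 to 20 in Tet2+/- and 1 to 17 in double mutants against wild type, from 0 to 12 and 0 to 6 in double mutants against NrasG12D/+ and Tet2+/-, from 2 to 17 and 0 to 7 for the average Nras and Tet2 effects, and from 0 to 6 for the interaction. With the replicate number as a block, 0 Hoxb genes were called in any comparison, and 0 genes in double mutants against Tet2+/- and for the interaction. Over 9780 genes, libraries with the same number correlated at 0.023 to 0.131 over 18 pairs, 3 of them over 0.1. Libraries with different numbers correlated at -0.094 to 0.045, and the ranges overlap. Still, 12 of 12 libraries correlated best with their own number, a hint from the data and not the design. Sex, called from reads of Xist and Y-linked genes, ran largely with that number. Replicate 1 was male and replicate 2 female in every genotype, and replicate 3 was female except in Tet2+/-. The replicate number and sex can therefore hardly be told apart. The cause of these moves was not tested. Hoxb8 had 0 to 182 reads per library, so differences among its lowest libraries are not detectable at this depth.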
